A study of Mus musculus with 4 samples.

Results

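Alveolar macrophages of wildtype FVB mice were compared between 32 weeks, called the late stage, and 16 weeks, called the early stage. They were chosen from droplet single-cell libraries of sorted lung cells by a fixed rule. A barcode counted as a cell with 1000 UMIs or more (unique molecular identifiers, each 1 captured RNA molecule), 500 genes or more and mitochondrial UMIs of no more than 10%. A cell counted as an alveolar macrophage (AM) where Chil3, Ear1, Ear2, Fabp1, Lpl and Plet1 together made at least 0.4% of its UMIs and exceeded C1qa, C1qb and C1qc together. The rule found 4833 AM among 5449 wildtype early cells and 4245 among 5129 wildtype late cells, so 9078 of the 22258 cells of the whole series. The series also holds lung macrophages of MMTV-HER2 mice, in which the promoter of the mouse mammary tumour virus drives the oncogene HER2. Their early library, at 16 weeks, gave 4413 AM and their late library, at 32 weeks, gave 5702. All mice were female, and no treatment is named for any group. In the study's wording the late stage is that of mice with palpable tumours, and the wildtype late mice, which carry no transgene, share only their age. Each group is 1 library, and how many mice it pools and which antibodies set the sort are not given in the sources used here. No difference below therefore has a replicate check, no test was possible, and the 95% intervals cover counting error only.

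Alveolar macrophages live on the air side of the lung, where they take up surfactant, inhaled particles and dying cells. They are set apart by GM-CSF signalling and the lipid regulator Pparg, carry scavenger receptors such as Marco, and renew by dividing locally. Because they digest surfactant they are rich in lysosomes and in genes of lipid storage and cholesterol export, and they store iron in ferritin. Recovering them from digested lung uses enzymes and warming of the tissue, steps known to switch on heat shock and immediate early genes in many cells.

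Only 6 of the 12 AM markers lie outside the rule. These 6, Siglecf, Car4, Krt79, Pparg, Atp6v0d2 and Cidec, were found in both wildtype libraries, at a summed 1814 CPM early and 1886 CPM late (CPM, a gene's UMIs summed over the AM of a library and scaled to all UMIs of those cells). Markers of other lung cells stood lower. The 7 interstitial macrophage markers outside the rule summed to 29.6 and 35.99 CPM, and with the C1q genes, which the rule limits, to 76.0 and 117.9 CPM. Of the 275.3 and 175.1 CPM of club and ciliated cell markers, Tppp3 made 273.6 and 160.0, and the other 7 summed to 1.75 and 15.1 CPM, higher late. T cell markers summed to 52.6 and 3.71 CPM and erythroid markers to 6.39 and 23.5 CPM, early and late. AM made up 88.7% (87.8 to 89.5) of wildtype early cells and 82.8% (81.7 to 83.8) of wildtype late cells by the exact Clopper-Pearson interval, a share that the sort can set. Early AM gave 22860512 UMIs with a median of 4309 per cell, and late AM 21563827 with a median of 4752. AM of the 2 wildtype libraries shared 8 barcodes. Near the limit of the rule, 331 early and 94 late AM held less than double the required marker share, and 36 and 38 cells missed it while holding at least 0.2%. The genes of the rule themselves went in different directions. Chil3, a chitinase-like protein, stood at 7126 CPM early and 11652 late, Lpl, a lipase, at 1223 and 2161, and the ribonuclease Ear2 at 3423 and 2129, which is given as description only.

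The wildtype late library stood apart from the other 3 in AM. For cells that were not AM, only the 2 wildtype libraries were compared. Over the 7489 genes with at least 10 CPM in either wildtype library the median gene was higher late by log2 0.16, and every difference below is log2 of (CPM + 1), late minus early, relative to that median gene. Genes whose longest coding transcript was under 1000 bases had a median of -0.43, those of 1000 to 2000 bases -0.12, and those of 5000 bases or more 0.06. Of the 482 shortest, 124 (25.7%) were at least 1.5-fold lower late, against 15 of 1686 (0.89%) of the longest. Genes whose 3′ end has a near-identical copy elsewhere among transcripts had a median of -0.27 over 345 genes, and 79 of these (22.9%) were at least 1.5-fold lower. The same classes were low in the wildtype cells that were not AM (medians of -0.26 under 1000 bases and -0.28 with a copy), but not in HER2 AM (-0.02 and -0.03). What part short transcripts and shared 3′ ends play in the results below was not tested.

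**Figure D1:**
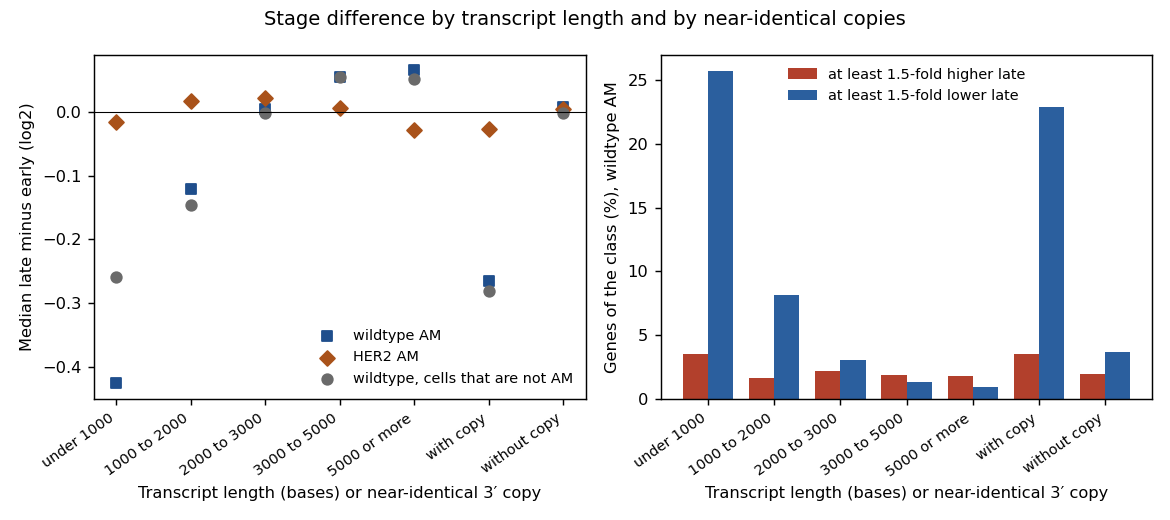
The left panel plots the median late-minus-early difference (log2, relative to the median gene) of genes grouped by transcript length in bases and by whether their 3′ end has a near-identical copy, for wildtype AM, HER2 AM and the wildtype cells that were not AM. The right panel gives the percentage of each class at least 1.5-fold higher or lower late in wildtype AM. Wildtype medians go down to -0.43 in AM for the shortest transcripts while HER2 medians stay between -0.03 and 0.02.

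A difference of at least 1.5-fold past the median gene, in either direction, is called higher or lower here, without a test. By this rule 149 of the 7489 genes (1.99%) were higher late in wildtype AM and 339 (4.53%) were lower. With library totals alone, not set to the median gene, the split was 368 higher and 161 lower. Among 7177 genes in HER2 AM, 33 (0.46%) were higher late and 26 (0.362%) lower. The SD of the differences over genes was 0.34 in wildtype and 0.17 in HER2. In the wildtype cells that were not AM, a changing mixture of 616 early and 884 late cells, 12.9% of 9360 genes were higher and 12.5% lower.

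**Figure D2:**
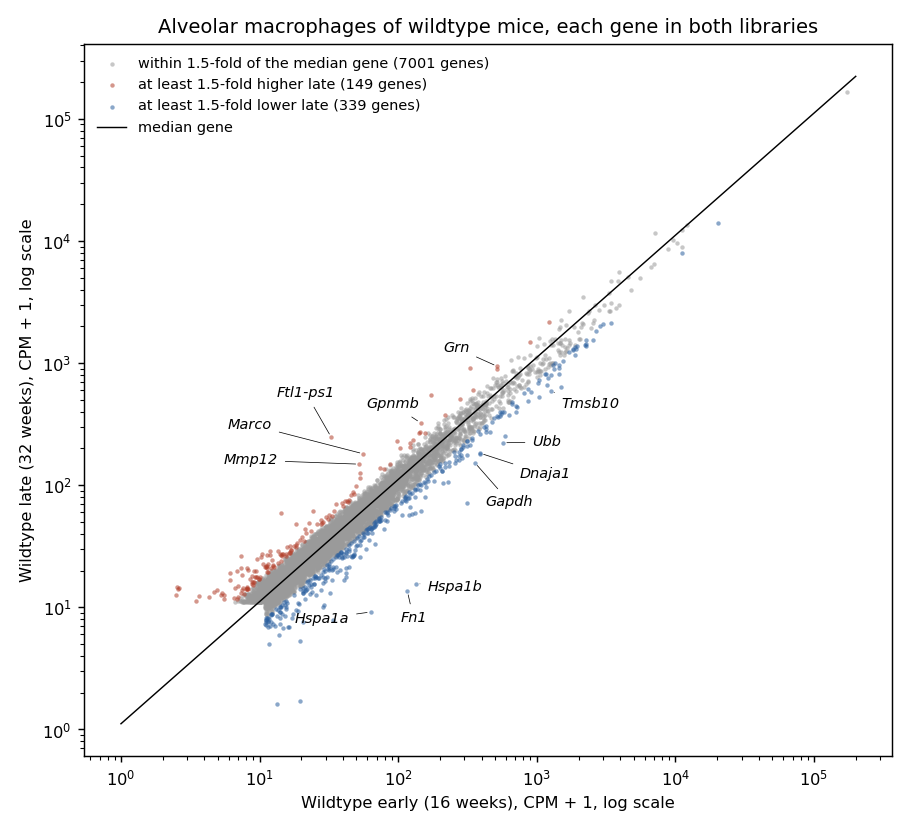
Each point is a gene, with its level in wildtype early AM on the x axis and in wildtype late AM on the y axis (CPM + 1, log scales). The line marks the median gene, and 149 genes lie at least 1.5-fold above it and 339 at least 1.5-fold below. Hspa1b, Fn1 and Hspa1a lie farthest below it among the labelled genes and Ftl1-ps1 farthest above.

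Late wildtype AM held more RNA of Marco, Mmp12, Gpnmb and Grn. Marco, the scavenger receptor that binds bacteria and particles (chromosome 1, 120474538 to 120505024, GRCm38), stood at 54.99 CPM in wildtype early, 179.7 in wildtype late, 107.8 in HER2 early and 153.4 in HER2 late. Wildtype early was thus the lowest of the 4, and the late level was 2.90-fold higher than the early one (1.54, interval 1.46 to 1.65). In HER2 the difference was 0.52. Mmp12, a macrophage metalloproteinase that cuts elastin, stood at 51.4, 147.7, 37.6 and 61.8 CPM in the same order, which gave 1.35 (1.27 to 1.47) in wildtype and 0.72 in HER2. Here wildtype late was the highest of the 4. Gpnmb, a membrane glycoprotein of lipid-laden macrophages, stood at 144.0, 323.2, 174.6 and 230.7 CPM, a difference of 1.01 (0.95 to 1.07) in wildtype and 0.41 in HER2. Grn, the precursor of the granulins that lysosomes use, went from 518.0 to 939.0 CPM in wildtype (0.70, 0.67 to 0.74) and from 500.4 to 621.9 in HER2 (0.33).

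Other genes of the same side were Mlph, an adaptor for granule transport (1.19), the potassium channel Kcnj15 (0.97), the metallothionein Mt2 (0.85), the zinc transporter Slc39a2 (0.81), the glycosyltransferase B3gnt7 (0.80), the syndecan Sdc3 (0.76) and the histone deacetylase Hdac4 (0.76). Tnfsf13, the cytokine APRIL, stood at 0.75. Wildtype late was the highest library for each of these 8 genes. In HER2 AM their differences ran from 0.01 for Hdac4 to 0.37 for Mt2. Of the genes on this side, Ftl1-ps1 and Ear10 have near-identical copies and are described with them further on. In the wildtype cells that were not AM, Marco went the other way (-0.99, from 19.3 to 9.29 CPM), as did Mt2 (-0.46), Gpnmb (-0.34) and Slc39a2 (-0.27), while Mmp12 (2.29), Mlph (1.11), Tnfsf13 (0.93) and Sdc3 (0.77) were on the AM side.

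These levels came with more cells holding the RNA. After every cell was thinned to 2000 UMIs, which left out 357 early and 171 late AM, 6.14% (5.46 to 6.89) of early and 15.2% (14.1 to 16.4) of late wildtype AM had a Marco UMI. Without thinning the shares were 9.37 and 21.5%. Gpnmb UMIs were in 19.8 and 39.3% of thinned AM, Mmp12 UMIs in 6.01 and 10.6% and Grn UMIs in 63.4 and 81.7%, early and late. Lymphoid cells of the same libraries, which should lack Marco and Gpnmb, show what free RNA gives. In wildtype early, 1 of 135 thinned lymphoid cells had a Marco UMI (0.74%) and 2 had a Gpnmb UMI (1.48%), and in wildtype late none of 50 had either, which allows up to 7.11% by the exact interval. Their median depths were 3281 and 2038 UMIs before thinning. Marco stayed uneven among cells: the richest 1% of AM held 41.7% of its UMIs early and 25.4% late. In AM split by depth into 3 bands, shallow to deep, the Marco difference was 1.57, 1.32 and 1.58.

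**Figure D3:**
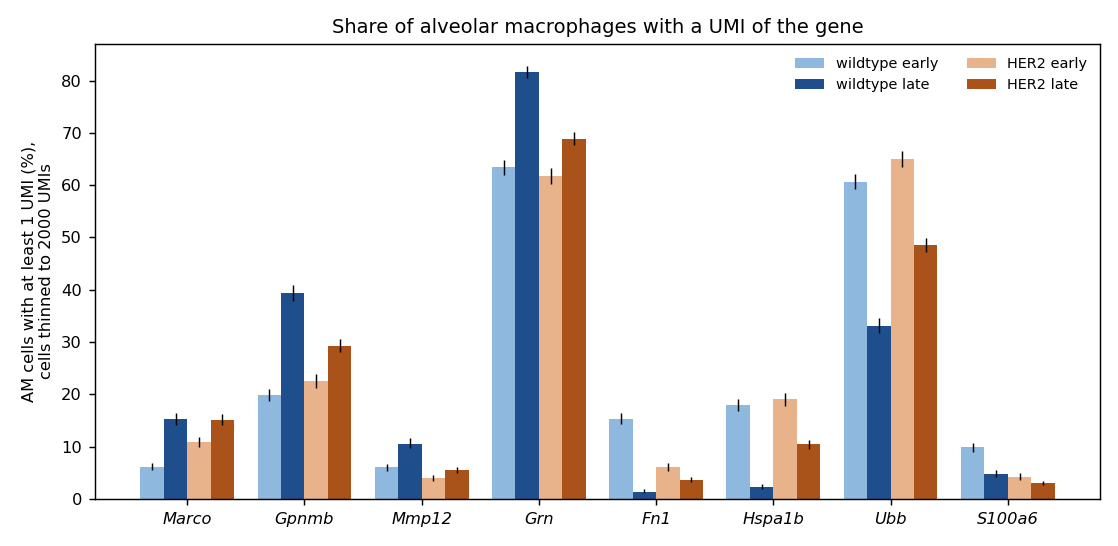
Bars give the percentage of AM with at least 1 UMI of each gene in the 4 libraries after thinning every cell to 2000 UMIs, and lines give exact 95% intervals that cover counting error only. Grn and Gpnmb bars are tallest in wildtype late, while Fn1 goes from 15.3% in wildtype early to 1.40% in wildtype late.

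Fn1, which encodes the matrix protein fibronectin (chromosome 1, 71585520 to 71653200), was among the lowest genes late. Its level was 115.5 CPM in wildtype early, 12.5 in wildtype late, 47.4 in HER2 early and 26.7 in HER2 late, so the 2 wildtype libraries were the ends of the range. The wildtype level was 9.60-fold lower late (-3.26, interval -3.55 to -3.18), against -0.79 in HER2. The share of thinned AM with an Fn1 UMI was 15.3% (14.2 to 16.4) early and 1.40% (1.06 to 1.81) late. In lymphoid cells it was 2.96% (0.81 to 7.41) early and 2.00% (0.05 to 10.6) late. The late lymphoid share rests on 50 thinned cells, and its interval is too wide to set the late AM share apart from free RNA. What remained late was concentrated: the richest 1% of AM held 82.6% of Fn1 UMIs late and 16.3% early, and 1 late cell held 40. The transcript is long, at 8315 bases, and has no near-identical copy. In wildtype cells that were not AM, the difference was -0.46.

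Early AM with an Fn1 UMI were set beside the other AM of their library. Among 684 such thinned cells, 22.2% had a UMI of S100a6, a small calcium-binding protein, against 7.65% of the 3792 others, and 43.1% against 31.5% had a UMI of Cd74, the invariant chain of MHC class II. Marco UMIs were in 3.51 and 6.62% of them. The 57 late cells with an Fn1 UMI had S100a6 in 43.9% and Mmp12 in 50.9%, against 4.23 and 10.01% of the others. Chil3 UMIs were in 99.4% or more of both kinds of cell in both libraries. These genes were chosen after the values of Fn1 were seen, and cells of a library are not replicates. S100a6 itself stood at 117.8 CPM in wildtype early, 56.1 in wildtype late, 53.4 in HER2 early and 40.3 in HER2 late, so that wildtype early alone was high. Its wildtype difference was -1.21 (-1.32 to -1.13). In AM without any Fn1 UMI it was at 58.2 CPM early and 43.3 late, a ratio of less than 1.5. That ratio, unlike the -1.21, is not set to the median gene. Without that step the log2 difference over all AM was -1.06.

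Of the 15 measured S100 and annexin genes, 5 were lower and none higher, with a median of -0.18. All 5 were S100 genes with short transcripts: S100a6, S100a4 (-1.16), S100a10 (-0.99), S100a11 (-0.81) and S100a13 (-0.64). S100a8 (0.55) and S100a1 (0.09) were not on that side. The annexins, which bind membranes and have longer transcripts, lay between -0.42 (Anxa1) and 0.01 (Anxa6). Among 16 matrix and metalloproteinase genes Mmp12 was higher, and Fn1 and the metalloproteinase inhibitor Timp2 (-0.61) lower.

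Heat shock chaperones, which refold proteins after stress, were the lowest of the 32 gene lists. Of 23 measured members 13 were lower late and none higher, with a median of -0.71, against a median of -0.16 in HER2, where only Hspa1a, Hspa1b and Ahsa1 passed 1.5-fold. The inducible Hsp70 genes led. Hspa1b was at 134.2 CPM in wildtype early, 14.7 in wildtype late, 135.9 in HER2 early and 72.0 in HER2 late (-3.27, interval -3.52 to -3.18, in wildtype and -0.89 in HER2). Hspa1a was at 62.3, 8.16, 68.8 and 41.1 CPM (-2.94, -3.32 to -2.86, in wildtype). Both early libraries were thus alike, both late libraries were lower, and wildtype late was the lowest. The shares of thinned AM with an Hspa1b UMI were 18.0 and 2.28% in wildtype and 19.1 and 10.4% in HER2.

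The co-chaperones followed. Dnaja1, an Hsp40 partner of Hsp70, went from 389.8 to 181.8 CPM (-1.25), and the mitochondrial Hspe1, which has a short transcript and near-identical copies, from 154.2 to 79.3 (-1.11, and -1.14 with the copy that the count tables list). Dnajb1 (-1.06), Hsph1 (-1.06), Chordc1 (-1.02), Cacybp (-0.89), Bag3 (-0.88), Hspa8 (-0.87), Ahsa1 (-0.86), Hsp90aa1 (-0.71) and Hspa4l (-0.63) completed the 13, named after their values were seen. Hspa8 and Ahsa1 also have near-identical copies. Hspa9, the mitochondrial Hsp70 (0.34), the regulator Hsf2 (0.19), Hspa4 (0.02) and Dnajb6 (-0.02) were at the other end. In the wildtype cells that were not AM the list had a median of -0.69, and 20 of 23 members had the sign seen in AM. The list median was -0.67, -0.69 and -0.73 in the shallow, middle and deep bands of AM. None of 27 immediate early genes, another group that stress induces, was called in either direction (median 0.04), with Jund at -0.43 and Atf3 at -0.37.

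Heat shock genes are switched on by the factor Hsf1 through inverted repeats of GAA. The 250 bases before the start of 5 lowered members are printed here because each holds such a pair, spelled GAANNTTC or TTCNNGAA (each its own reverse complement, so both strands were searched), in capitals. Sequences are from RefSeq (GRCm38.p6), written 5′ to 3′ on the strand of the gene.

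Hspa1a, chr17:34972157-34972406, minus strand: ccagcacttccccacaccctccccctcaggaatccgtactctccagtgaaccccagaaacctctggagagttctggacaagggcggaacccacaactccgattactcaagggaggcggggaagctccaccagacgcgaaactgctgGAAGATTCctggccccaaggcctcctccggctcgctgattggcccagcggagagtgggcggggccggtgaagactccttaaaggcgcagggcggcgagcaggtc

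Hspa1b, chr17:34959239-34959488, minus strand: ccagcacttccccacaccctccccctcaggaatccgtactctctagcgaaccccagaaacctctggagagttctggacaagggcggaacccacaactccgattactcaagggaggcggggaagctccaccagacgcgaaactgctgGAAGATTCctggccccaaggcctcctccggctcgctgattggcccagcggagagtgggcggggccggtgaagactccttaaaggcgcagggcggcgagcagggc

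Hspe1, chr1:55087898-55088147, plus strand: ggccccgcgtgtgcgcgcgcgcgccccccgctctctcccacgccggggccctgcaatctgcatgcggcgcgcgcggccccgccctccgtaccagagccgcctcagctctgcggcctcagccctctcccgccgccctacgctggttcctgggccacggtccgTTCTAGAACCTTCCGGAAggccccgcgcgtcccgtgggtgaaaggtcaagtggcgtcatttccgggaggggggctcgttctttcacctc

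Hsph1, chr5:149636337-149636586, minus strand: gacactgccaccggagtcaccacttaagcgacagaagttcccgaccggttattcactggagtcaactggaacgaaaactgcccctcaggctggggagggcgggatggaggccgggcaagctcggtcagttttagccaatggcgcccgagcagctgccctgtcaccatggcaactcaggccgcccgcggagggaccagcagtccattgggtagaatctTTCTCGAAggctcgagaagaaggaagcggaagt

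Dnaja1, chr4:40722218-40722467, plus strand: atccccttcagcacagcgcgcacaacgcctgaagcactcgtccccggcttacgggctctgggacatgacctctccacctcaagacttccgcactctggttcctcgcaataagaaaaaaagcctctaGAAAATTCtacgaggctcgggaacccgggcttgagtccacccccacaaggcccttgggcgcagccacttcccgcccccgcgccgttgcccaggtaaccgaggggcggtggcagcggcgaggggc

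The Hspa1a and Hspa1b stretches were equal at 247 of 250 bases, with the substitutions C44T, T47C and T249G counted from 1 at the 5′ end (Hspa1a base first). Both hold 1 pair that begins 104 bases before the start. In Hspe1, 3 overlapping pairs make a run of repeats 89 bases before the start. Of the 18 measured chaperone genes matched to the promoter table, 8 (44.4%) held a pair, against 12.8% of all 32851 promoter stretches and 11.9% of the 6083 matched genes with at least 10 CPM. The pair was in 5 of the 11 that were lower and in 3 of the 7 that were not, so members with and without the letters were lower. A match of letters is a description of the sequence and not a binding site.

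Genes of G2 and mitosis were below the median gene without exception: all 23 measured members were, 10 of them at least 1.5-fold, with a median of -0.54 against 0.02 in HER2. Ube2c, which helps degrade cyclins, stood at 39.3 CPM in wildtype early, 15.7 in wildtype late, 23.1 in HER2 early and 25.9 in HER2 late (-1.43, interval -1.66 to -1.30). Cdca8, of the chromosome passenger complex (-1.09), Prc1, which bundles the midzone spindle (-0.996), and Cenpf (-0.85) came next. For these 4 genes wildtype early was the highest library, and wildtype late was the lowest for all but Cenpf, which was lowest in HER2 early. Prc1 lay within 1 CPM in the other 3 libraries. The tubulin-binding Stmn1 (-1.27) and the linker histone Hist1h1e (-1.12) were lower too. DNA replication and S phase genes had a median of -0.18, with Pclaf (-1.16), Tyms (-0.76) and Dut (-0.71) lower of 21, and Cdt1 (0.33) and Mcm7 (0.27) at the top.

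The share of AM with at least 3 UMIs of the replication and mitosis lists after thinning had overlapping intervals in the 2 wildtype libraries. Wildtype early held 23.1% (21.9 to 24.4) such cells, wildtype late 21.9% (20.6 to 23.2), HER2 early 22.7% and HER2 late 20.8%. Without thinning the wildtype shares were 52.9 and 58.8%, in the other order. With at least 5 such UMIs after thinning they were 8.69 and 7.95%. Whether such cells were dividing was not tested, and Top2a UMIs were in 3.84 and 2.80% of thinned wildtype AM, early and late. Mitotic RNA sat in few, deep cells: the richest 1% of AM held 78.3% of Ube2c UMIs early and 74.3% late, and thinned cells with a Ube2c UMI were 2.32 and 1.62%. In the shallow band of AM the mitosis median was -0.08, in the middle band -0.37 and in the deep band -0.76. Ube2c itself was at 0.33, -0.38 and -1.84, so it was not lower in the shallow band. With a marker share of at least 1% in the AM rule, the list median was -0.20. In cells that were not AM the list was at -1.61, and T cell marker RNA in free droplets was 655.7 CPM early and 41.7 late. The part of other cells in the mitosis result was not tested.

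Promoters of mitosis genes often carry TTTGAA, the core of the cell cycle homology region, near the start. Of the 20 measured members matched to the table, 10 (50.0%) held TTTGAA or its reverse complement TTCAAA within 250 bases before the start, against 16.0% of all stretches and 12.1% of the matched genes with at least 10 CPM. CCAAT or ATTGG was in 16 (80.0%), against 33.9 and 40.0%. The members lower late held TTTGAA or TTCAAA in 5 of 9 and the others in 5 of 11. Ube2c and Prc1, chosen after their values were seen, show the motif in capitals at 29 and 30 bases before the start.

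Ube2c, chr2:164769679-164769928, plus strand: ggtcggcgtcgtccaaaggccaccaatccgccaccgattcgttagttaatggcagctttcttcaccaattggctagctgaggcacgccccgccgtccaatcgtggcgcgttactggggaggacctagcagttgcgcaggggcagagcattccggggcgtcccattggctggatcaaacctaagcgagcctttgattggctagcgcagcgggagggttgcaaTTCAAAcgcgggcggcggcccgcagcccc

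Prc1, chr7:80294226-80294475, plus strand: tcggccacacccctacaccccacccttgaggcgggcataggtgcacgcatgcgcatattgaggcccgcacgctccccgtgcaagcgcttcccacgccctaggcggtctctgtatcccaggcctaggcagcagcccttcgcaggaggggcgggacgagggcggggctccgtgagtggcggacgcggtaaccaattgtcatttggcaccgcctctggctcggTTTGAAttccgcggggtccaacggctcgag

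Several large differences belong to families whose members share their 3′ ends, where a read can be credited to the wrong copy. Sums over copies hold those that the count tables list. Ftl1-ps1, a copy of the ferritin light chain gene, went from 31.8 to 246.5 CPM in wildtype (2.76) and from 37.1 to 75.6 in HER2 (1.02). Summed with Ftl1 it went from 6667 to 6394 CPM, -0.22. Its RNA in free droplets was at 130.6 CPM early and 7399 late, and with free RNA subtracted its difference was 1.63. Of the 12 iron genes measured, the other 2 called higher were Steap3, a ferrireductase (1.15, from 4.33 to 12.2 CPM), and Ncoa4, the receptor that sends ferritin to lysosomes (0.63, from 216.4 to 372.6 CPM). Steap3 entered the measured genes only through its late level, which favours a higher call. The ferritin heavy chain Fth1 was at -0.48.

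The Ear and angiogenin ribonucleases of the lung split. Of 10 measured, 5 were lower (Ear6 -0.86, Ear2 -0.84, Ang4 -0.79, Ang5 -0.74 and Ear1 -0.69) and Ear10 was higher (0.71), while Ang6 (0.52) and Ang2 (0.50) missed 1.5-fold. The 5 lower genes have transcripts of 700 to 893 bases. With the trend with length removed the list median was -0.27, against -0.48. Ear1 and Ear2 are part of the AM rule and have copies. Ear10 summed with its copy gave -0.45. In HER2 Ear10 was also higher (0.79), and Ear1 was on the other side (0.40). Bcl2a1a (144.9 to 60.2 CPM, -1.41) and Bcl2a1b (229.6 to 105.5 CPM, -1.27), short survival genes of the Bcl2 family, gave -1.33 when summed with their copies. Of the other 12 measured survival genes Bad, at -0.59, was the 1 called. Ubb, a polyubiquitin gene, went from 571.8 to 221.8 CPM (-1.52, and -1.47 with its copy) and from 682.0 to 396.5 in HER2 (-0.77). Gapdh, a glycolytic enzyme with many pseudogenes, went from 356.6 to 151.7 CPM (-1.38, interval -1.45 to -1.33) and was at 335.4 and 366.9 CPM in HER2. The 4 copies that the count tables list hold almost no UMIs. With them the sum was 356.6 CPM early and 152.0 late, also -1.38. Such a sum cannot show reads credited to copies that are not listed. Of the 14 measured glycolysis genes Eno1 was the other 1 called (-1.40), also with a copy, and the list median was -0.04.

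Ribosomal proteins and oxidative phosphorylation, 2 large groups of short transcripts, were low in late wildtype AM. Of 81 ribosomal protein genes 35 were lower and 3 higher (median -0.54, and -0.02 in HER2), and 50 of the 81 have a near-identical copy. They took 10.7% of AM UMIs early and 8.55% late. Rpl17 went from 1484 to 639.0 CPM, while Rps27 went from 170.4 to 547.8 CPM (1.52), or 1.37 summed with its copy. Of 76 subunits of the respiratory chain encoded in the nucleus, 15 were lower and none higher (median -0.42), among them Sdhd of complex II (-1.01) and Cox5b of complex IV (-0.81). Once the trend with length was taken out, the median was -0.06 for the respiratory chain and -0.24 for ribosomal proteins. The 13 mitochondrially encoded genes had a median of 0.01. Tmsb10, which binds actin (-1.25), Mgst3, a glutathione transferase of membranes (-1.19), and Bst2, the interferon-inducible tetherin (-1.17), were single short genes among the lowest, with Tmsb10 at -0.82 and Bst2 at -0.78 without that trend.

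The lysosomal, lipid storage and cholesterol synthesis lists had medians slightly above the median gene, and the cholesterol efflux list did not. Of 45 lysosomal hydrolase and proton pump genes 32 were above it, with a median of 0.15 (0.07 in HER2), but Grn alone passed 1.5-fold. The ion channel Mcoln1 (0.54), the peptidase Tpp1 (0.50) and the cathepsin Ctsb (0.45) followed, and the short pump subunit Atp6v0b (-0.47) was lowest. Of 27 lipid storage and fatty acid genes, Pdk4, which limits glucose oxidation (0.94), and the acyl-CoA synthetase Acsl4 (0.61) were higher, and the lipid droplet protein Cidec was lower (-0.70). None of 18 measured genes of cholesterol synthesis was called, though 13 lay above the median gene (median 0.18, and 0.20 in HER2), with Dhcr7, of the last steps of the pathway, at 0.47. The 13 genes of cholesterol efflux and apolipoproteins lay between -0.51 (Apoc1) and 0.29 (Stard3), with a median of -0.05 and none called. Among 25 uptake receptors Marco stood alone past 1.5-fold. The next were the Fc receptor Fcgr4 (0.49) and the integrin Itgb2 (0.42), and the list median was 0.11.

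Antigen presentation of class II was higher for 2 of its 8 measured genes. Cd74 went from 511.1 to 895.9 CPM (0.65) and H2-Ab1 from 120.2 to 204.7 (0.61), as they did in HER2 (0.89 and 0.84). H2-Aa, whose protein pairs with that of H2-Ab1, was at -0.05 in wildtype and 0.65 in HER2. The peptide loader genes H2-DMa and H2-DMb1 went in different directions, at -0.52 and 0.49. Beside them, C1qa, a marker of interstitial macrophages, went from 24.8 to 46.8 CPM in wildtype AM (0.74) and from 32.4 to 85.6 in HER2 AM (1.39). In wildtype cells with at least 0.4% of UMIs from C1q genes, and no fewer than from the AM genes of the rule, Cd74 stood at 19251 CPM early and 26807 late. The part of such cells in the class II values was not tested. In class I, H2-K1 (0.55) and Tapbp (0.53) were at the top of 18 genes and the immunoproteasome subunit Psmb9 was lower (-0.62). Of 18 interferon response genes Cxcl9 was higher (1.36, from 3.67 to 12.3 CPM), and Bst2 and Ifi209 (-0.77) were lower. Tsc22d3, a target of glucocorticoids, went from 431.0 to 270.6 CPM (-0.83) among 14 such genes with a median of -0.24. That list also holds Mt2, which was higher (0.85), and Mt1 (0.26) and Fkbp5 (0.18) lay above the median gene.

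Some groups that define these cells were near the median gene. Of 24 AM identity and GM-CSF signalling genes, Cidec alone was called (median 0.01), with the receptors Tgfbr2 (0.41) and Mrc1 (0.31) at the top. None of 24 NF-kB targets and cytokines was called (median -0.08, Nfkbia lowest at -0.55). None of 12 complement and Fc receptor genes was called either (median -0.13). Of 12 chemoattractant receptors and Rgs genes, Cxcr4 (-0.82) and Rgs10 (-0.71, with a transcript of 880 bases) were lower. Of 22 unfolded protein response genes the chaperone Hyou1 was higher (0.70) and Sdf2l1 lower (-0.70). Of 28 large nuclear protein genes Hdac4 and Ogt (0.61) were higher and Rsrp1 lower (-0.71).

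**Figure D4:**
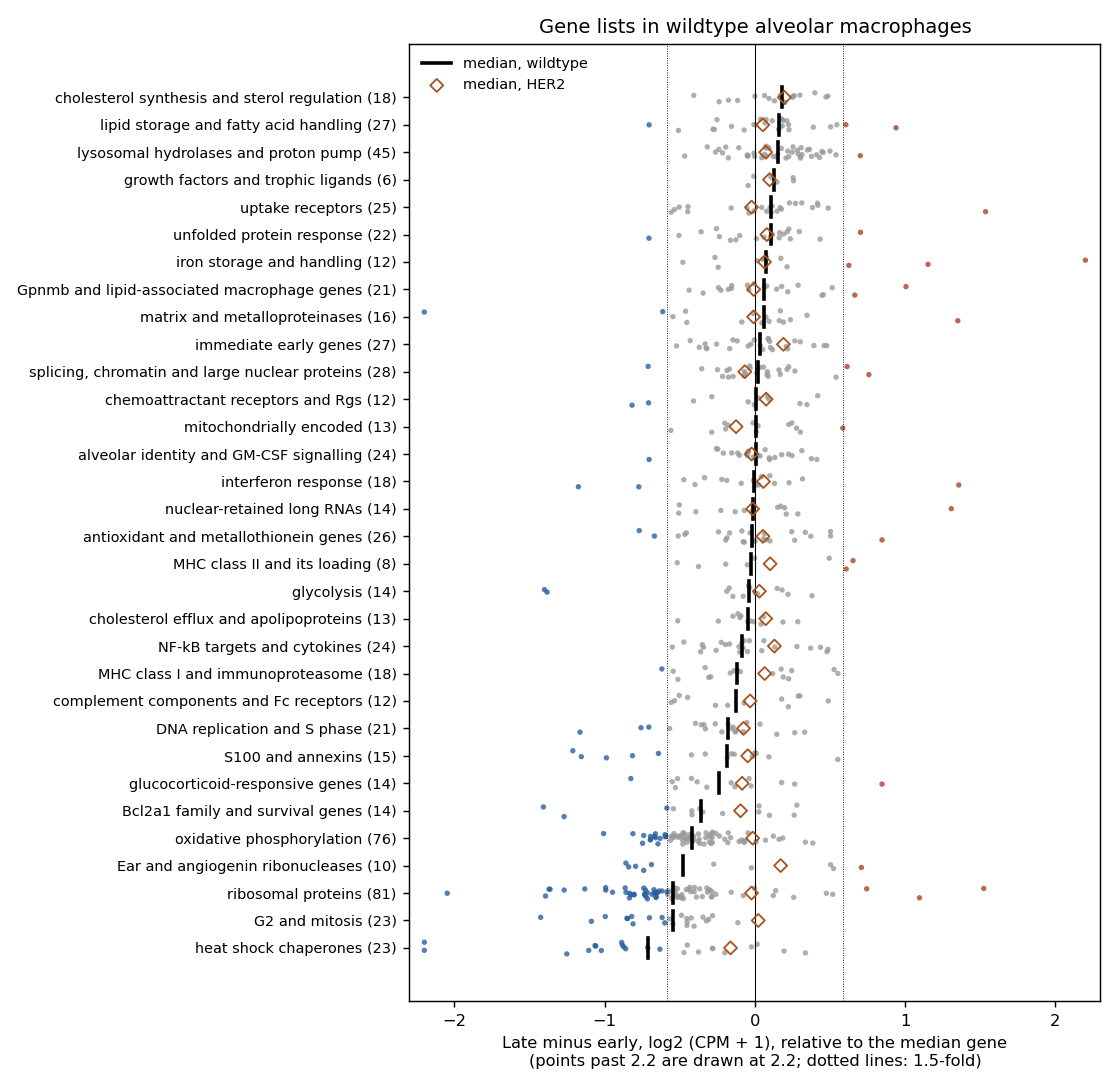
Each point is a measured member of a gene list (number in brackets), placed at its late-minus-early difference in wildtype AM (log2, relative to the median gene), red or blue where at least 1.5-fold higher or lower. Black bars are list medians in wildtype and open diamonds list medians in HER2. Heat shock chaperones are lowest, at -0.71, and the 23 mitosis genes all lie left of 0, while HER2 medians stay between -0.16 and 0.20.

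The called genes were set beside HER2, whose 2 libraries are not shared with this comparison. Since wildtype values chose them, a larger median in wildtype was fixed by that choice. Of the 149 higher genes, 121 had at least 10 CPM in either HER2 library. On the same side in HER2 were 135 of the 149 (90.6%), with medians of 0.74 and 0.27. There 21 passed 1.5-fold on that side and 1 on the other. Of the 339 lower genes, 324 had that level in HER2. On the same side were 269 of the 339 (79.4%), with medians of -0.73 and -0.09, and 18 passed, with none on the other side. The same-side share over all genes is not given here. Wildtype late lay beyond all 3 other libraries for 134 of the higher and 333 of the lower genes, which the choice favours, and by at least 1.5-fold for 21 and 169. Wildtype early lay at least 1.5-fold beyond the other 3 for 7 and 10 genes. Over all 7489 genes, called or not, wildtype late was the highest library for 2822 (37.7%) and the lowest for 2884 (38.5%). Of the 33 genes called higher in HER2, 31 were on the same side in wildtype, with medians of 0.88 in HER2 and 0.74 in wildtype. Of the 26 called lower there, 25 were, with medians of -0.79 and -1.27. At 50 CPM or more, Mmp12, Cd74, H2-Ab1, Ear10, Ftl1-ps1 and B930036N10Rik were higher late in both pairs, and Hspa1a, Hspa1b, Ubb, Bcl2a1a, Ear2 and Gm10260 were lower in both. Across 2591 genes with at least 50 CPM the wildtype and HER2 differences correlated at Pearson 0.51, and genes are not independent replicates. In the authors' deposited table of averages over AM, all 29 genes named here by the rule for the largest differences lay on the side found here. That table comes from the same libraries, so it is not an independent check.

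**Figure D5:**
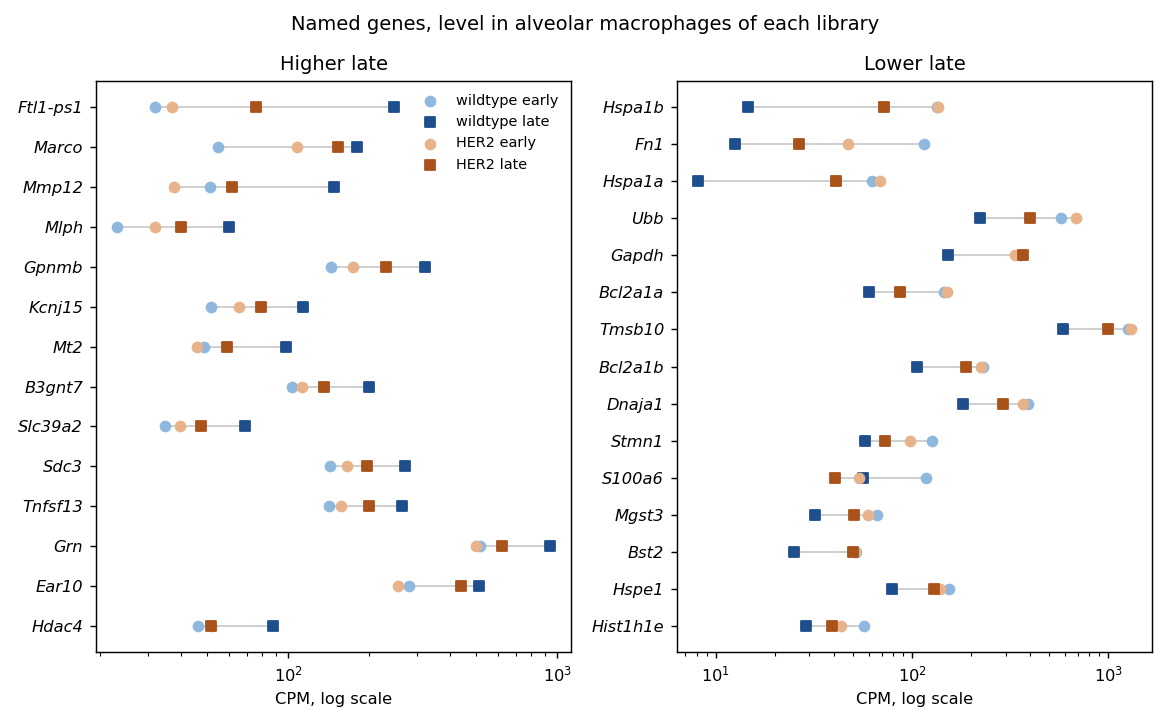
Points give the level (CPM, log scale) of the 14 genes named here as higher and the 15 named as lower late, in AM of each of the 4 libraries, with circles for early and squares for late. Wildtype late is the highest library for all 14 on the left and the lowest for all on the right except S100a6, for which both HER2 libraries are lower.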

How the data were processed

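Lungs were digested and sorted, and libraries made with a 10x 3′ assay, per the labels' protocols. Counts of UMIs were deposited as unfiltered matrices over 32285 genes. Cell Ranger 5.0.1 and mm10 are given in the submitters' processing notes, and Cell Ranger 4 per the file headers. The authors also deposited averaged signal over AM, summing to 10000 per library, with their cell choice not given in the sources used here. That table served as an alternative only.

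Counts were summed over AM and scaled to CPM. Differences use a pseudocount of 1 CPM over genes with at least 10 CPM. Intervals are exact conditional binomial intervals (95%) of the ratio of counts without the pseudocount, so a difference is not at their centre, and intervals of shares are exact Clopper-Pearson. UMIs of 1 library are not replicates, so both cover counting error only. Total UMIs were 34858960 (wildtype early), 30587008 (wildtype late), 28786682 (HER2 early) and 39228655 (HER2 late). No doublet caller was run. Lymphoid cells are cells that are not AM, with at least 3 UMIs of T and B cell markers and fewer than 3 of C1q genes. Free droplets are barcodes with 10 to 100 UMIs.

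Named genes are the 15 highest and 15 lowest, ranked by the interval bound nearest 0, among genes with at least 50 CPM. Mitochondrial, ribosomal protein, haemoglobin, immunoglobulin and unnamed genes, Xist, Y-linked genes, markers of other cells and genes of the AM rule were left out. Each list also names its 4 highest and 4 lowest members, and all members where it has at most 15. A highest gene and a list member that these rules name are not reported here. The members and lists were chosen with earlier results of these data known. Copies were sought with BLAST 2.17.0 (last 300 bases, 95% identity over at least 90 bases) in GENCODE M21, which also gave positions and lengths. Calculations were tested on simulated data. Scaling, cell filters, depth, free RNA, cycling cells, least level, pseudocount and transcript length were varied, with TMM factors from edgeR 4.0.16.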

Additional observations from a re-analysis of the deposited data

Results flagged for a closer look

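Gapdh and Ang4 were lower late in wildtype AM and lay on the other side in HER2 AM, outside the counting interval of the HER2 difference. They were not the only such genes: S100a4 was at -1.16 in wildtype and 0.37 (0.17 to 0.61) in HER2. Gapdh was at -1.38 in wildtype (356.6 CPM early, 151.7 late) and 0.14 (0.10 to 0.19) in HER2 (335.4 and 366.9 CPM). Ang4 was at -0.79 in wildtype (328.5 and 210.6 CPM) and 0.23 (0.19 to 0.28) in HER2 (301.3 and 351.1 CPM). Each value rests on 1 library against 1, and the difference between the genotypes was not tested. Beside them, Gapdh has 123 near-identical 3′ ends among transcripts and was at -2.05 in the wildtype cells that were not AM, and Ang4 has a transcript of 709 bases.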

How the results depend on the processing

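No paired analysis was possible because each group is 1 library, and no library could be left out. The counts of 149 higher and 339 lower genes moved by over 1.5 times under some settings. They were 368 and 161 with library totals alone and 50 and 176 with at least 50 CPM. With no least level 466 genes were higher, and with a pseudocount of 5 CPM 98. With the trend with transcript length removed 193 were lower. With transcripts of at least 2000 bases only, a setting added after seeing the data, 84 were higher and 114 lower, of which 92 were among the 339. The late minus early share of AM with at least 3 UMIs of the replication and mitosis lists was -1.21 percentage points when thinned and 5.92 unthinned. All 29 genes named for the largest differences kept their side under every setting run for them, the smallest value for Hspa1b being -2.96, for Fn1 -2.59 and for Marco 1.49. Medians of the heat shock and mitosis lists stayed below 0 in every setting, at -0.46 and -0.20 nearest to 0, whereas the replication list was at 0.18 without cells holding 3 or more cycle UMIs. The cause of these moves was not tested.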
